A study of Mus musculus with 12 samples.

Results

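N-linked glycosylation of proteins in the endoplasmic reticulum (ER) was followed at the transcript level through 33 of the 24346 genes in the expression table. These genes were taken by name and by their place in the pathway: they make the sugar donor UDP-GlcNAc, build the dolichol-linked oligosaccharide, transfer it to proteins, and trim and read it on the new glycoprotein. All 33 were found in the table and all 33 passed the filter of at least 1 FPKM in at least 3 libraries, as did 10311 genes in all. RNA sequencing had been done on bone marrow derived macrophages (BMDMs), which are grown from mouse marrow cells with the growth factor M-CSF. The 12 libraries formed 4 groups of 3, all of genotype WT. The Tm plus LPS group had tunicamycin (Tm) at 5 ug/ml for 3 h before LPS at 1 ng/ml for 3 h. The Tm group had tunicamycin without LPS, and the LPS group had LPS without tunicamycin. The control group had neither agent. All groups shared the 7 days of culture in medium with 10% serum. The sources used here do not give the time of exposure in the Tm group, nor whether tunicamycin remained in the medium during LPS.

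The pathway begins in the cytosol, where the hexosamine route converts fructose-6-phosphate into UDP-GlcNAc. On the ER membrane DPAGT1 places GlcNAc-phosphate on dolichol phosphate, the reaction that tunicamycin blocks, and the ALG enzymes extend this lipid-linked oligosaccharide first on the cytosolic and then on the lumenal face. The oligosaccharyltransferase moves the finished glycan to asparagine residues, after which glucosidases trim it and the lectin chaperones calnexin and calreticulin hold the glycoprotein while it folds. Without glycans many proteins misfold, which sets off the unfolded protein response. LPS, the ligand of the receptor TLR4, is the inflammatory stimulus of the study.

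Values are FPKM, fragment numbers scaled to transcript length and to the mapped fragments of the library, so that levels can be set side by side between genes. Differences are log2 fold changes of FPKM + 1 with their standard errors, which understate the change of genes near 1 FPKM. Tests were made with limma over all 10311 genes, and a gene is said to have risen or fallen where its Benjamini-Hochberg adjusted p was under 0.05. Nothing in the labels tells whether the replicates are separate animals or cultures. A p-value therefore reflects the spread among these libraries only, and that spread may be technical. In bulk RNA, fewer cells of a type and less RNA per cell cannot be told apart.

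The libraries had summed FPKM of 561108 to 685010 and 9507 to 9741 genes at 1 FPKM or more, while read depth is unknown. The Pearson correlation of log2(FPKM + 1) between libraries was 0.973 to 0.986 within groups and 0.889 to 0.952 between groups. The ER chaperone gene Hspa5 had 14850, 11580 and 14160 FPKM in the Tm plus LPS libraries, 7233, 10560 and 10990 in the Tm libraries, 1110, 1233 and 1250 in the LPS libraries, and 765, 912 and 845 in the control libraries. Its log2 fold change was 3.49 ± 0.14 for Tm against control, and that of Tnf was 7.59 ± 0.16 for LPS against control. All 8 macrophage markers were tested, and their summed level was 14240 to 22980 FPKM over the 12 libraries. Of them 1 rose and 3 fell with Tm against control, 0 rose and 2 fell with Tm plus LPS against LPS, 0 rose and 2 fell with LPS against control, and 0 rose and 1 fell with Tm plus LPS against Tm. The 7 neutrophil markers found summed to 17.1 to 31.7 FPKM in Tm plus LPS, 14.3 to 25.8 in Tm, 190.3 to 316 in LPS and 86.7 to 125.8 in control libraries. The 7 stromal markers summed to 18.3 to 46.8 FPKM in Tm plus LPS, 22.0 to 41.2 in Tm, 9.22 to 17.02 in LPS and 8.85 to 11.1 in control libraries. Of the neutrophil markers 5 were tested, of which 3 fell with Tm against control, and of the stromal markers 6 were tested, of which 4 rose. With Tm plus LPS against LPS 4 neutrophil markers fell and 2 stromal markers rose. Of the neutrophil markers 3 rose with LPS against control and 1 with Tm plus LPS against Tm, and 0 stromal markers passed in these. Of 5 dendritic markers 2 were tested, of which 2 rose with LPS against control and 1 with Tm plus LPS against Tm. The 6 markers of B and plasma cells summed to 3.92 to 5.46 FPKM in Tm plus LPS, 4.61 to 6.16 in Tm, 6.47 to 8.63 in LPS and 3.83 to 5.49 in control libraries. Ms4a1 and Pax5 among them were listed at 0 in every library, and the 1 that was tested fell with Tm plus LPS against LPS. Some macrophage, neutrophil and stromal markers thus moved with tunicamycin in the same libraries as the genes below, and their part in any result was not tested.

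Tunicamycin moved 15 of the 33 genes, in both directions, and LPS alone moved 2. Against control, Tm raised 8 genes and lowered 7, while 18 did not pass. Over all genes tested 34.5% passed in this contrast, 17.9% higher and 16.6% lower. Of the 33 genes, 7 rose and 7 fell with Tm plus LPS against LPS, where 28.9% of all genes passed, 13.8% higher and 15.1% lower. The median log2 fold change of the 33 was -0.01 for Tm against control, beside 0.03 over all genes, and both were 0.00 for Tm plus LPS against LPS. LPS against control raised 1 gene, Alg13, and lowered 1, Mogs, where 18.4% of all genes passed, 10.5% higher and 7.86% lower. With Tm plus LPS against Tm 3 genes rose (Gfpt1, Pgm3 and Alg3) and 1 fell (Alg1), where 15.7% of all genes passed, 8.69% higher and 7.0% lower. The balance of these calls turned under quantile normalization in both LPS contrasts: 47.97% of the genes that passed with LPS against control were then higher, against 57.23% as reported, and 44.92% with Tm plus LPS against Tm, against 55.38%. The interaction, the LPS effect with Tm less that without it, passed for Mogs alone, against 3.37% of all genes, 1.41% higher and 1.96% lower. In the interaction and in Tm plus LPS against Tm, LPS and the time of exposure to Tm cannot be told apart. For the Tm group that time is not given.

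The steps of the pathway did not share a direction. All 4 genes of UDP-GlcNAc synthesis rose in both tunicamycin contrasts, with a median log2 fold change of 1.16 for Tm against control and 1.24 for Tm plus LPS against LPS. Of the 8 oligosaccharyltransferase genes 0 rose in either contrast by limma (0 also at an unadjusted p under 0.05), except that Ddost rose with Tm against control under quantile normalization. Of these 8 genes 1 fell with Tm against control and 2 with Tm plus LPS against LPS (1 and 3 at an unadjusted p under 0.05). The 5 genes of dolichol phosphate and dolichol sugar donors had 0 that rose in either contrast (0 also at an unadjusted p under 0.05). Of these 5 genes 1 fell with Tm against control and 2 with Tm plus LPS against LPS (3 and 2 at an unadjusted p under 0.05). Assembly of the oligosaccharide was mixed: the cytosolic-face genes had 1 of 6 higher and 1 lower with Tm against control, and the lumenal-face genes 2 of 5 higher and 3 lower. With Tm plus LPS against LPS 1 rose and 2 fell on the cytosolic face, and 1 rose and 1 fell on the lumenal face. Of the 5 genes of glucosidases, glucosyltransferase and lectins 1 rose and 1 fell with Tm, and 1 rose with Tm plus LPS against LPS.

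**Figure D1:**
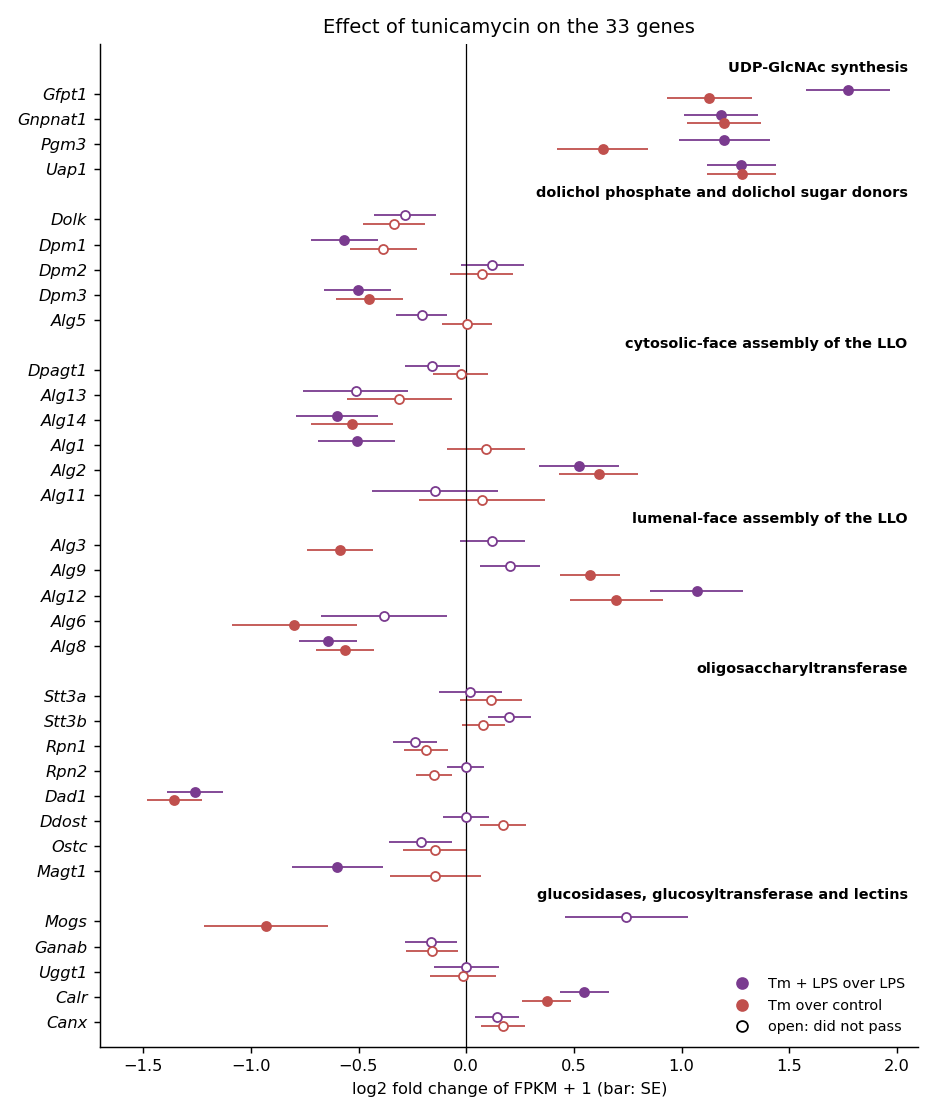
Log2 fold change of FPKM + 1 with its standard error for each of the 33 genes, by step of the pathway, for Tm plus LPS over LPS (purple) and Tm over control (red); filled points passed at an adjusted p under 0.05 and open points did not. The 4 UDP-GlcNAc genes lie between 0.63 and 1.77, and Dad1 lies at -1.26 and -1.36.

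The pair of tunicamycin contrasts share no library, but both use the same estimate of spread per gene, from all 12 libraries. Their calls are therefore not independent. In them 7 genes rose both times (Gfpt1, Gnpnat1, Pgm3, Uap1, Alg2, Alg12 and Calr), 4 fell both times (Dpm3, Alg14, Alg8 and Dad1) and 15 passed in neither. With Tm alone 1 further gene rose (Alg9) and 3 fell (Alg3, Alg6 and Mogs), and 3 others (Dpm1, Alg1 and Magt1) fell in the presence of LPS. Of these 7 genes, the interaction passed for Mogs and for none of the other 6, so a difference between the contrasts was not shown for those. The log2 fold changes of the 33 genes in the 2 contrasts had a Pearson correlation of 0.797 and the same sign in 27 genes. Over all 10311 genes the correlation was 0.661 and the sign was the same in 7591, and genes within a library are not independent of each other.

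These counts depended on single libraries. For Tm against control the number of genes that passed was 8 without control replicate 1, 8 without Tm replicate 3 and 9 without Tm replicate 2, against 15 with all libraries. For Tm plus LPS against LPS it was 9 without LPS replicate 1, against 14. For Tm plus LPS against Tm it was 1 without Tm replicate 1, Tm replicate 3 or Tm plus LPS replicate 3, and 2 without LPS replicate 1, control replicate 3 or Tm plus LPS replicate 1. For LPS against control it was 1 without LPS replicate 3 or control replicate 2. For the interaction it was 0 without LPS replicate 1 or 2, control replicate 1 or 2, or Tm plus LPS replicate 1 or 3, and 2 without Tm replicate 2.

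Promoters of the 33 genes, whether they rose or not, were read for elements through which the unfolded protein response is known to act. These letters can be set beside the measured changes. The windows run from 250 bases before to 50 bases after the start of the gene, from RefSeq on GRCm38.p6, and 28 of the 33 genes had one. Gnpnat1, Alg2, Dpagt1, Alg11 and Ostc had none. Gnpnat1 and Alg2, which rose in both tunicamycin contrasts, were therefore not searched. Each motif was searched on both strands. The ER stress response element, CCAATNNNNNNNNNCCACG, where ATF6 binds next to NF-Y, was found in 3 of the 28 (Calr, Canx and Alg12) and in 0.137% of all 27025 genes with a window. The ERSE-II form, in which ATTGG and CCACG stand 1 base apart, was found in 0 of the 28 and in 0.0444% of all genes. The core of the element bound by XBP1 and ATF6, TGACGTG, was found in 3 of the 28 (Uap1, Dpm2 and Mogs) and in 2.22% of all genes. The composite element of ATF4 and C/EBP proteins, TGATGNAAT, was found in 0 of the 28 and in 1.08% of all genes. A match is a run of letters and not a measured site, and it did not sort the genes by response: Calr, Alg12 and Uap1 rose with Tm, Canx and Dpm2 did not pass, and Mogs fell. The windows below, all on the minus strand and written 5′ to 3′, are those of the ERSE genes and of the UDP-GlcNAc gene with a match, with the matched letters in capitals.
Calr, chr8:84846882-84847181, ERSE as its reverse complement: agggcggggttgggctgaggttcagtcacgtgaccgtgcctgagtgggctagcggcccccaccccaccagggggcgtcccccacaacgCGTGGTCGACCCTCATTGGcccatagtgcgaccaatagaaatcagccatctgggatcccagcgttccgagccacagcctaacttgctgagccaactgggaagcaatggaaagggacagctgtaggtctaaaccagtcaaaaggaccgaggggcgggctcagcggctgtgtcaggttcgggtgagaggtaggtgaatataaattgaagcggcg
Canx, chr11:50325624-50325923, ERSE as written: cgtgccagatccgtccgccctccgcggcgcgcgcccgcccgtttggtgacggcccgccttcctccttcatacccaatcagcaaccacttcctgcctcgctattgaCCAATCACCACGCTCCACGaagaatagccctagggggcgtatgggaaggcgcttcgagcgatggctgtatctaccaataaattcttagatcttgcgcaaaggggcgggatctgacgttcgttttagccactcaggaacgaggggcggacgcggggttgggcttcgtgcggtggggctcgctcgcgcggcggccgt
Alg12, chr15:88819269-88819568, ERSE as written: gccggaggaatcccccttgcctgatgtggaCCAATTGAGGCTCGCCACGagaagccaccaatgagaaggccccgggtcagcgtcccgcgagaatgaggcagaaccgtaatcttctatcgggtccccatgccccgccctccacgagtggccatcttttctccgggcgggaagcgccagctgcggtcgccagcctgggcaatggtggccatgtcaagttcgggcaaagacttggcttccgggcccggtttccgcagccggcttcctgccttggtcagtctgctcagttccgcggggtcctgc
Uap1, chr1:170174915-170175214, TGACGTG as written: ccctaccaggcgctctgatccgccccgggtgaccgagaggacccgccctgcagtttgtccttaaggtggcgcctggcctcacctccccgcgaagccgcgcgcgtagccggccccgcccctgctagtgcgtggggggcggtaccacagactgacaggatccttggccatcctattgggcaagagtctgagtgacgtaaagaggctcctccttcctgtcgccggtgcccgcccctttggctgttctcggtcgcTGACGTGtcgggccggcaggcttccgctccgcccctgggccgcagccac
Counted from the start of the gene, the match began at base -162 in Calr, -145 in Canx, -220 in Alg12 and 2 in Uap1.

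UDP-GlcNAc synthesis was the step in which every gene rose. Gfpt1, which makes glucosamine-6-phosphate and sets the pace of the route, lies at chr6:87042846-87092197 on the plus strand (GENCODE M21, on GRCm38). Gfpt1 had 16.4, 13.7 and 10.7 FPKM in the Tm plus LPS libraries, 5.82, 5.35 and 6.75 in Tm, 3.34, 3.20 and 3.10 in LPS, and 2.06, 2.50 and 2.00 in control libraries. The 4 groups did not overlap, and Gfpt1 was the lowest of the 33 genes in control cells. On the scale of FPKM + 1 it rose 2.19-fold with Tm against control (log2 1.13 ± 0.20, adjusted p = 0.000324). On the same scale it rose 3.42-fold with Tm plus LPS against LPS (log2 1.77 ± 0.20, adjusted p = 5.24e-06). These folds understate the change in FPKM itself. The mean FPKM was 13.59 in Tm plus LPS, 5.976 in Tm, 3.215 in LPS and 2.188 in control libraries. Gfpt1 was higher with Tm plus LPS than with Tm (log2 1.05 ± 0.20, adjusted p = 0.00132), while LPS against control gave 0.41 ± 0.20 (adjusted p = 0.186). The difference between these contrasts did not pass (interaction log2 0.64 ± 0.28, adjusted p = 0.285).

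Gnpnat1, which acetylates glucosamine-6-phosphate, had 24.8, 22.1 and 22.7 FPKM in the Tm plus LPS libraries, 22.9, 24.7 and 27.4 in Tm, 9.08, 12.6 and 7.78 in LPS, and 10.7, 8.68 and 11.7 in control libraries. All 6 libraries with Tm lay above all 6 without it, and LPS made no difference that passed. The log2 fold change was 1.20 ± 0.17 for Tm against control (adjusted p = 4.99e-05) and 1.18 ± 0.17 for Tm plus LPS against LPS (adjusted p = 7.62e-05). Gnpnat1 shares 81.9% of its exonic bases with Styx on the opposite strand. Stretches of its transcript recur elsewhere, 552 bases (19.8%) in Gm14698 and 556 bases (19.9%) in a processed pseudogene. The sources used here do not tell whether the libraries kept the strand, so reads of the pair cannot be told apart; Styx was listed at 0.84 to 3.90 FPKM and did not pass (log2 0.22 for Tm against control).

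Pgm3 turns GlcNAc-6-phosphate into GlcNAc-1-phosphate. Pgm3 had 12.4, 8.55 and 14.6 FPKM in the Tm plus LPS libraries, 7.22, 6.31 and 6.82 in Tm, 5.59, 3.54 and 4.53 in LPS, and 3.62, 4.28 and 4.16 in control libraries. The Tm plus LPS libraries were the highest, the Tm libraries lay between them and the rest, and LPS overlapped control. Pgm3 rose by 0.63 ± 0.21 with Tm against control (adjusted p = 0.0285), by 1.20 ± 0.21 with Tm plus LPS against LPS (adjusted p = 0.000475) and by 0.70 ± 0.21 with Tm plus LPS against Tm (adjusted p = 0.0338). The rise with Tm against control was lost without any 1 of 5 libraries (control replicates 1 and 3 and Tm replicates 1, 2 and 3), with adjusted p of 0.0528 to 0.0841. The rise with Tm plus LPS against Tm was likewise lost without Tm replicate 1, 2 or 3 or Tm plus LPS replicate 1 or 3, with adjusted p of 0.0630 to 0.138. Pgm3 shares 28.3% of its exonic bases with Dopey1 on the opposite strand, which was listed at 0.37 to 1.31 FPKM.

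Uap1, the enzyme that joins GlcNAc-1-phosphate to UTP and so completes UDP-GlcNAc, lies at chr1:170141938-170174957 on the minus strand and has the promoter printed above. Uap1 had 33.1, 27.2 and 24.4 FPKM in the Tm plus LPS libraries, 21.3, 25.02 and 23.5 in Tm, 11.1, 11.9 and 10.0 in LPS, and 8.69, 7.58 and 10.9 in control libraries. Again all libraries with Tm were above all without it, and the groups with and without LPS overlapped. The log2 fold change was 1.28 ± 0.16 in both tunicamycin contrasts (adjusted p = 1.49e-05 for Tm against control and 2.04e-05 for Tm plus LPS against LPS).

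**Figure D2:**
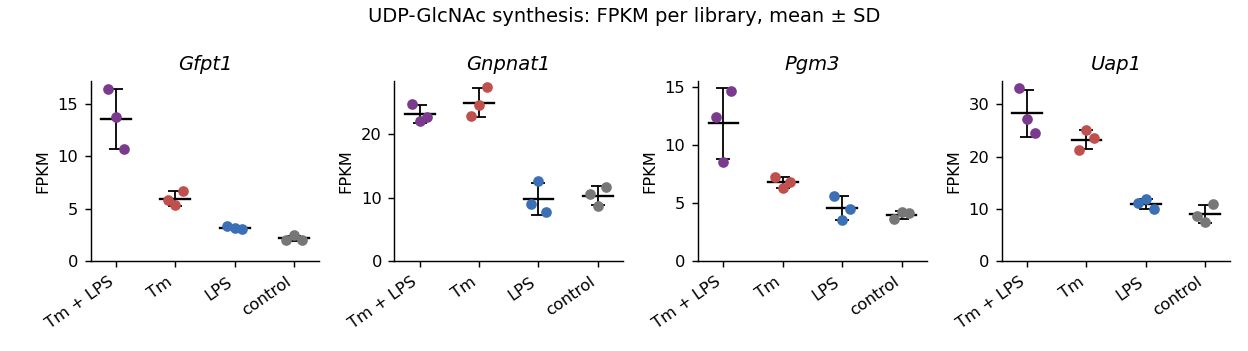
FPKM (linear axis from 0) of the 4 genes of UDP-GlcNAc synthesis in each of the 12 libraries, with points for libraries and bars for the mean and SD of 3. In each panel the Tm plus LPS and Tm libraries lie above the LPS and control libraries, and for Gfpt1 and Pgm3 the Tm plus LPS libraries also lie above the Tm libraries.

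The genes that supply dolichol phosphate and its sugars were lower or did not pass. Dpm3, a membrane subunit that holds the catalytic subunit of dolichol-phosphate-mannose synthase, had 16.5, 11.7 and 16.2 FPKM in the Tm plus LPS libraries, 15.2, 16.3 and 19.5 in Tm, 22.0, 19.7 and 21.9 in LPS, and 23.1, 26.2 and 21.4 in control libraries. It fell by 0.45 ± 0.16 on the log2 scale with Tm against control (adjusted p = 0.0341) and by 0.50 ± 0.16 with Tm plus LPS against LPS (adjusted p = 0.0230), with no overlap in either. The first of these calls was lost without control replicate 1 or 2 or Tm replicate 1 or 2 (adjusted p of 0.0660 to 0.121), and the second without LPS replicate 1 or 3 or Tm plus LPS replicate 2 (0.0627 to 0.102). Dpm1, the catalytic subunit, had 9.30, 10.2 and 13.1 FPKM in Tm plus LPS, 9.16, 10.7 and 10.4 in Tm, 16.1, 17.4 and 15.7 in LPS, and 14.0, 13.8 and 12.6 in control libraries. It fell by 0.57 ± 0.16 with Tm plus LPS against LPS (adjusted p = 0.0125, and 0.0528 without Tm plus LPS replicate 1), while Tm against control gave -0.39 ± 0.16 (adjusted p = 0.0676), also with no overlap. That value passed under quantile normalization (adjusted p = 0.0233), with no trend (0.0486) and without Tm plus LPS replicate 3 (0.0454). Dpm1 shares 12.0% of its exonic bases with a gene model on the same strand, Gm20716. The shared stretch of 895 bases is 39.0% of the longest protein-coding transcript of Dpm1. Reads that lie within it cannot be told apart between these genes.

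Dolk, the kinase that makes dolichol phosphate, had 14.0 to 15.2 FPKM in Tm plus LPS, 16.8 to 20.5 in Tm, 15.5 to 21.5 in LPS and 22.3 to 25.8 in control libraries. No contrast passed for it, with log2 values of -0.34 ± 0.14 for Tm against control (adjusted p = 0.0842) and -0.39 ± 0.14 for LPS against control (adjusted p = 0.0757). Under quantile normalization both passed (adjusted p = 0.0417 and 0.0393), and the LPS value also passed without LPS replicate 1 (0.0349). Dpm2, the other small subunit of the mannose synthase, had 33.5 to 51.4 FPKM over the 12 libraries, and Alg5, which makes dolichol-phosphate-glucose, had 42.3 to 60.4. The 4 groups of Alg5 overlapped throughout, and its log2 values lay between -0.21 and 0.09 in the 4 pairwise contrasts, the lowest of which passed without Tm plus LPS replicate 1 (log2 -0.32, adjusted p = 0.0488).

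Dpagt1, the enzyme that tunicamycin inhibits, had a transcript level that did not pass the test in any contrast. Dpagt1 had 60.0, 46.6 and 58.1 FPKM in the Tm plus LPS libraries, 55.0, 57.4 and 63.3 in Tm, 68.1, 62.0 and 53.7 in LPS, and 66.9, 58.7 and 53.8 in control libraries. The 4 groups overlapped. The log2 fold change was -0.03 ± 0.13 for Tm against control (adjusted p = 0.902), -0.16 ± 0.13 for Tm plus LPS against LPS (adjusted p = 0.389), 0.03 ± 0.13 for LPS against control (adjusted p = 0.904) and -0.10 ± 0.13 for Tm plus LPS against Tm (adjusted p = 0.678). The gene lies at chr9:44326019-44333900 on the plus strand, and at 59.8 ± 6.6 FPKM (SD, n = 3) it was the 11th most abundant of the 33 in control cells.

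Alg13 and Alg14 form the enzyme that adds the next GlcNAc after DPAGT1, with ALG13 as the catalytic and ALG14 as the membrane part. Alg14 had 19.9, 11.9 and 15.2 FPKM in Tm plus LPS, 12.0, 14.5 and 14.1 in Tm, 24.4, 20.1 and 27.5 in LPS, and 23.9, 15.9 and 20.8 in control libraries. It fell by 0.53 ± 0.19 with Tm against control (adjusted p = 0.0412) and by 0.60 ± 0.19 with Tm plus LPS against LPS (adjusted p = 0.0269). The groups did not overlap, but the first call was lost without any 1 of 6 libraries (control replicates 1 and 3, LPS replicate 1 and Tm replicates 1, 2 and 3; adjusted p of 0.0515 to 0.164) and the second without LPS replicate 1 or 3 or Tm plus LPS replicate 2 or 3 (0.0609 to 0.117). Alg13 behaved otherwise, as the only one of the 33 that rose with LPS against control with all libraries and the filter at 1 FPKM. It had 2.88, 5.26 and 2.47 FPKM in Tm plus LPS, 1.34, 2.24 and 2.16 in Tm, 5.11, 4.93 and 5.75 in LPS, and 2.19, 2.56 and 3.02 in control libraries. This rise was 0.81 ± 0.24 (adjusted p = 0.0282) and was lost without control replicate 1 or 2 or LPS replicate 1, 2 or 3 (0.0582 to 0.09999). With Tm plus LPS against LPS Alg13 gave log2 -0.51 ± 0.24 (adjusted p = 0.130). Without Tm plus LPS replicate 2 that value was -0.77 and passed (adjusted p = 0.0263). Within libraries, the ratio of Dpagt1 to Alg13 had a median of 20.9 in Tm plus LPS, 29.3 in Tm, 12.6 in LPS and 23.0 in control cells. Its ranges were 8.87 to 23.5, 25.6 to 41.1, 9.33 to 13.3 and 17.8 to 30.5 in that order. The Tm range overlapped control, and the Tm plus LPS range overlapped both LPS and control.

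The mannosyltransferases of the cytosolic face did not move together. Alg2, which adds mannoses after the first one, had 14.6, 19.5 and 12.9 FPKM in Tm plus LPS, 20.1, 23.4 and 22.6 in Tm, 8.97, 12.7 and 10.1 in LPS, and 16.4, 11.2 and 15.0 in control libraries. It rose by 0.61 ± 0.19 with Tm against control (adjusted p = 0.0169) and by 0.52 ± 0.19 with Tm plus LPS against LPS (adjusted p = 0.0446), with no overlap. The first rise was lost without control replicate 2 or Tm replicate 2 or 3 (adjusted p of 0.0512 to 0.0845). The second was lost without any 1 of 8 libraries (adjusted p of 0.0524 to 0.181). These were control replicate 3, LPS replicates 1 and 3, Tm replicates 1, 2 and 3, and Tm plus LPS replicates 1 and 2. With Tm plus LPS against Tm Alg2 gave log2 -0.48 ± 0.19 with no overlap (adjusted p = 0.0934). Without Tm plus LPS replicate 2 that value was -0.64 and passed (adjusted p = 0.0347). Alg1, which adds the first mannose, had 11.9, 15.0 and 9.20 FPKM in Tm plus LPS, 17.6, 20.3 and 16.4 in Tm, 18.8, 18.3 and 14.8 in LPS, and 19.2, 14.0 and 17.7 in control libraries. It was lowest in the group given both agents. It fell by 0.51 ± 0.18 with Tm plus LPS against LPS (adjusted p = 0.0444), where the libraries overlapped, and by 0.57 ± 0.18 against Tm (adjusted p = 0.0411).

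Both falls of Alg1 were lost without any 1 of 8 libraries: control replicate 3, LPS replicates 1 and 2, Tm replicates 1, 2 and 3, and Tm plus LPS replicates 1 and 3 (adjusted p of 0.0516 to 0.183 against LPS and 0.0502 to 0.169 against Tm). Alg1 shares 17.6% of its exonic bases with Eef2kmt on the opposite strand. Eef2kmt fell with LPS against control (log2 -0.45, adjusted p = 0.0350) and gave -0.40 with Tm plus LPS against Tm (adjusted p = 0.0682), so part of a difference in Alg1 cannot be told apart from reads of its neighbour. Alg11, which adds the last mannoses on the cytosolic side, was low, at 2.00 to 5.80 FPKM over the 12 libraries, and overlapped between all groups, although without LPS replicate 2 it rose with LPS against control (log2 0.79, adjusted p = 0.0491).

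On the lumenal face the mannosyltransferase genes Alg9 and Alg12 rose with Tm while Alg3 and the glucosyltransferase genes Alg6 and Alg8 fell. Alg12, which has the ERSE letters printed above, had 9.05, 10.7 and 12.3 FPKM in Tm plus LPS, 9.01, 8.65 and 14.2 in Tm, 4.30, 4.57 and 4.71 in LPS, and 4.43, 6.86 and 7.07 in control libraries. All 6 libraries with Tm were above the other 6. It rose by 0.70 ± 0.22 with Tm against control (adjusted p = 0.01999) and by 1.07 ± 0.22 with Tm plus LPS against LPS (adjusted p = 0.00150), and the first of these was lost without control replicate 1 or Tm replicate 3 (adjusted p of 0.1004 and 0.125). Alg9 had 26.7, 23.0 and 21.03 FPKM in Tm plus LPS, 21.1, 23.3 and 24.4 in Tm, 19.1, 20.1 and 21.7 in LPS, and 17.2, 14.6 and 13.6 in control libraries. It rose by 0.57 ± 0.14 with Tm against control (adjusted p = 0.00433), while Tm plus LPS overlapped LPS and gave 0.20 ± 0.14 (adjusted p = 0.2999). LPS against control gave 0.40 ± 0.14 with no overlap (adjusted p = 0.0537), a value that passed with no filter (0.0473), with the filter at 5 FPKM (0.0490) and without control replicate 1 (0.0406) or Tm plus LPS replicate 1 (0.0467) or 3 (0.0471). Alg9 shares 12.9% of its exonic bases with 1110032A03Rik on the opposite strand, which did not pass in any contrast.

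Alg3, which adds the first mannose on the lumenal side, had 52.7, 60.5 and 69.3 FPKM in Tm plus LPS, 43.8, 54.0 and 33.5 in Tm, 57.0, 60.0 and 49.9 in LPS, and 58.9, 70.4 and 65.9 in control libraries. It fell by 0.58 ± 0.15 with Tm against control (adjusted p = 0.00718) but gave 0.12 ± 0.15 with Tm plus LPS against LPS (adjusted p = 0.597). Tm plus LPS was higher than Tm by 0.48 ± 0.15 (adjusted p = 0.0411) although these libraries overlapped. That call was lost without control replicate 3, LPS replicate 1, Tm replicate 1 or 3, or Tm plus LPS replicate 2 or 3 (adjusted p of 0.0521 to 0.215). The interaction gave 0.71 ± 0.22 and did not pass (adjusted p = 0.0936, and 0.0358 without Tm replicate 2).

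Alg8 and Alg6 add glucoses to the finished mannose arm, Alg6 the first of them. Alg8 had 27.1, 36.0 and 31.3 FPKM in Tm plus LPS, 26.9, 34.6 and 33.8 in Tm, 48.4, 48.7 and 50.9 in LPS, and 54.1, 43.1 and 44.8 in control libraries. All 6 libraries with Tm lay below the other 6. It fell by 0.56 ± 0.13 with Tm against control (adjusted p = 0.00410) and by 0.64 ± 0.13 with Tm plus LPS against LPS (adjusted p = 0.00201), and both calls held in all 21 alternative analyses. Alg6 was scarce, with 2.57, 5.73 and 1.68 FPKM in Tm plus LPS, 2.45, 1.37 and 2.08 in Tm, 4.60, 3.47 and 4.68 in LPS, and 3.402, 4.92 and 4.08 in control libraries. It fell by 0.80 ± 0.29 with Tm against control (adjusted p = 0.0436). This call was lost without control replicate 1, 2 or 3, LPS replicate 1 or 3, or Tm replicate 2 or 3 (adjusted p of 0.0508 to 0.162), and Tm plus LPS replicate 2 lay above every LPS library. Without that replicate Alg6 also fell with Tm plus LPS against LPS (log2 -0.76, adjusted p = 0.0413).

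**Figure D3:**
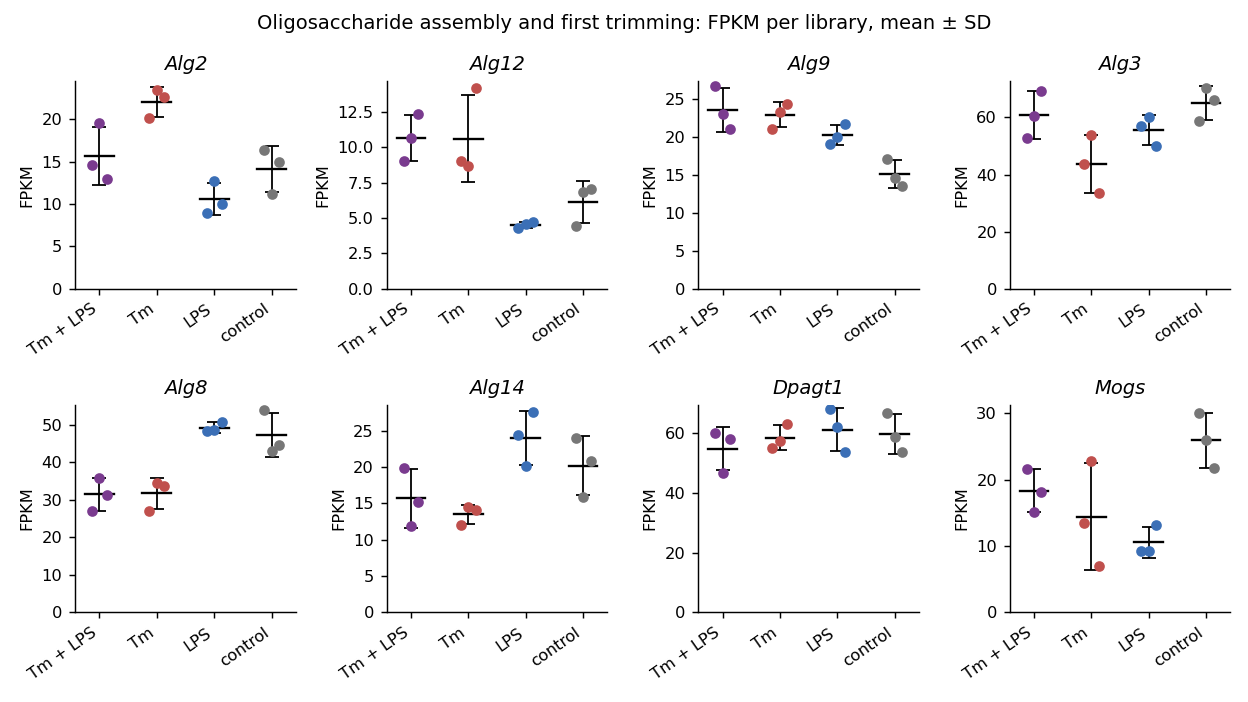
FPKM (linear axes from 0) in each library, with the mean and SD of 3, for 7 genes of oligosaccharide assembly and for Mogs, the first trimming enzyme. Alg12 is higher and Alg8 lower in all 6 libraries with Tm, Dpagt1 overlaps between all 4 groups, and Mogs is lowest in the LPS libraries and in Tm replicate 3.

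In the oligosaccharyltransferase the small subunit Dad1 fell by more than any other of the 33 genes, while the catalytic and the large accessory subunits did not pass. Dad1, at chr14:54235479-54254104 on the minus strand, encodes a membrane protein of 113 residues that was named for the cell death seen on its loss. Dad1 had 165.5, 109.6 and 143 FPKM in the Tm plus LPS libraries, 139, 113 and 134 in Tm, 358, 318 and 317 in LPS, and 304, 358 and 329.8 in control libraries. All 6 libraries with Tm were below all 6 without it, and the libraries with and without LPS overlapped in both states. Dad1 fell by 1.36 ± 0.13 on the log2 scale, to 2.56-fold lower, with Tm against control (adjusted p = 6.6e-07). It fell by 1.26 ± 0.13 with Tm plus LPS against LPS (adjusted p = 2.22e-06). Both calls held in all 21 alternative analyses, with log2 values of -1.41 to -1.08 over both.

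The catalytic subunits Stt3a and Stt3b, of which STT3A acts as proteins enter the ER and STT3B also later, had close levels in the 4 groups. Stt3a had 223, 182 and 166 FPKM in Tm plus LPS, 147, 216 and 237 in Tm, 182, 177 and 200.5 in LPS, and 188, 174 and 182 in control libraries. Stt3b had 84.3, 77.7 and 82.8 FPKM in Tm plus LPS, 75.1, 85.8 and 83.0 in Tm, 66.8, 72.4 and 73.6 in LPS, and 71.9, 85.4 and 73.6 in control libraries. Neither passed in any contrast, although Stt3b was higher in every Tm plus LPS library than in every LPS library (log2 0.20 ± 0.10, adjusted p = 0.148). The ratio of Stt3b to Stt3a had medians of 0.426 in Tm plus LPS, 0.396 in Tm, 0.367 in LPS and 0.404 in control cells, with overlapping ranges. Rpn1 and Rpn2, the ribophorins, and Ddost, further subunits that both forms of the enzyme share, also did not pass in any contrast. Their log2 values for Tm against control were -0.19 ± 0.10 for Rpn1, -0.15 ± 0.08 for Rpn2 and 0.17 ± 0.11 for Ddost. In contrast to Dad1, the log2 values of these 5 genes in the tunicamycin contrasts were at most 0.24 in size. Under quantile normalization Ddost rose with Tm against control (log2 0.44, adjusted p = 0.00278), and both Ddost (log2 -0.36, adjusted p = 0.0202) and Rpn1 (log2 -0.33, adjusted p = 0.0269) fell with Tm plus LPS against Tm. Without Tm plus LPS replicate 1 Rpn1 fell with Tm plus LPS against LPS (log2 -0.32, adjusted p = 0.0308). The ratio of Dad1 to Rpn1, chosen after the values were seen, had a median of 0.972 in Tm plus LPS and 0.801 in Tm cells, against 1.84 in LPS and 1.88 in control cells.

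Ostc, a subunit of the STT3A form, had 93.5 to 147 FPKM in Tm plus LPS, 107.7 to 138 in Tm, 129 to 154 in LPS and 125 to 148 in control libraries, and did not pass in any contrast. Magt1, an oxidoreductase of the STT3B form, had 26.1, 25.5 and 11.8 FPKM in Tm plus LPS, 24.8, 25.3 and 24.9 in Tm, 31.95, 30.2 and 30.0 in LPS, and 25.8, 31.1 and 26.5 in control libraries. It fell by 0.60 ± 0.21 with Tm plus LPS against LPS (adjusted p = 0.0444), a value that rested on 1 low library. Without Tm plus LPS replicate 3 the log2 value was -0.24 (adjusted p = 0.191). The call was also lost without control replicate 1 or 3, or any 1 LPS or Tm library (adjusted p of 0.0517 to 0.1103).

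Other small subunits, which were not among the 33, were set beside Dad1. Ost4, of 37 residues, had 195, 143 and 152 FPKM in Tm plus LPS, 157, 131 and 185 in Tm, 363.5, 326.5 and 334 in LPS, and 303, 339 and 393 in control libraries. Tmem258, of 79 residues, had 123.5, 66.6 and 84.6 FPKM in Tm plus LPS, 69.6, 99.1 and 116 in Tm, 266, 208.5 and 232 in LPS, and 210.5, 233 and 222.5 in control libraries. For both genes every library with Tm was below every library without it. Ost4 fell by 1.13 ± 0.13 with Tm against control (adjusted p = 8.11e-06) and by 1.07 ± 0.13 with Tm plus LPS against LPS (adjusted p = 1.9e-05). Tmem258 fell by 1.25 ± 0.19 (adjusted p = 9.5e-05) and by 1.39 ± 0.19 (adjusted p = 4.46e-05). Krtcap2, of 136 residues, and Ostc, of 149 residues, did not pass, with log2 values of -0.19 ± 0.16 and -0.14 ± 0.15 for Tm against control.

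**Figure D4:**
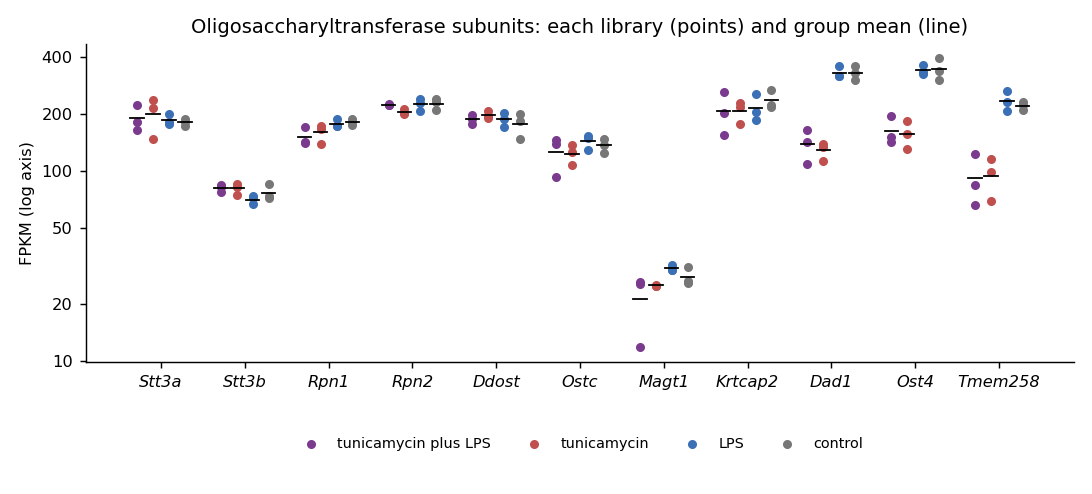
FPKM on a log axis for 11 oligosaccharyltransferase subunits, with a point for each library and a line for the mean of 3, in the order Tm plus LPS, Tm, LPS and control within each gene. Dad1, Ost4 and Tmem258 are lower in all 6 libraries with Tm, Stt3a overlaps between all groups, and 1 Tm plus LPS library of Magt1 stands at 11.8.

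The share of genes that fell was then set out by coding length. Over all genes tested whose coding sequence was found, 45.0% of the 680 with fewer than 450 coding bases fell with Tm against control, against 23.9% of the 2092 with at least 450 but fewer than 900, 13.1% of the 3786 with at least 900 but fewer than 1800, and 10.9% of the 3127 with 1800 or more. With Tm plus LPS against LPS these shares were 42.4%, 22.3%, 12.4% and 8.25%. Of the 33 genes 4 had fewer than 450 coding bases (Dpm2, Dpm3, Dad1 and Ostc), and 2 of them fell in each contrast. The relation was looked at after the values were seen, and what it rests on was not tested.

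**Figure D5:**
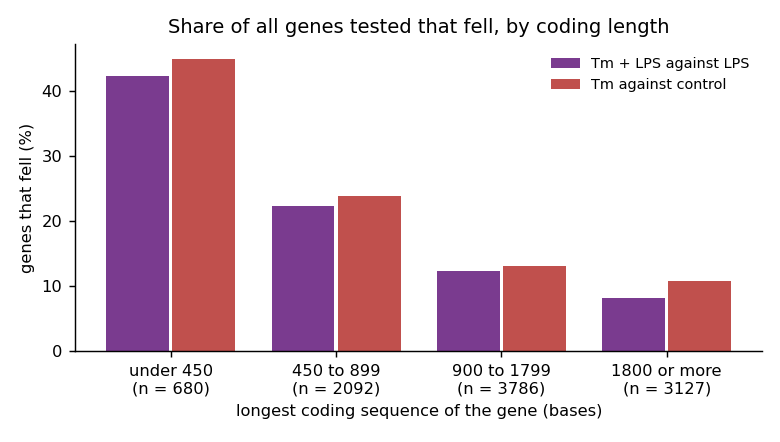
Percent of all genes tested that fell at an adjusted p under 0.05, by the length in bases of the longest coding sequence, for Tm plus LPS against LPS (purple) and Tm against control (red); n is the number of genes. The share that fell is highest in the shortest class, at 42.4% and 45.0%, and lowest in the longest, at 8.25% and 10.9%.

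After transfer, the lectin chaperones and the trimming enzymes read the glycan. Calr, which encodes calreticulin, the soluble lectin chaperone, was the most abundant of the 33 in control cells at 368 ± 29 FPKM (SD, n = 3). Calr had 653, 481 and 482 FPKM in the Tm plus LPS libraries, 425, 484 and 526 in Tm, 369, 370.0 and 353 in LPS, and 349, 402 and 353 in control libraries. All 6 libraries with Tm were above the other 6. It rose by 0.37 ± 0.11 with Tm against control (adjusted p = 0.0178) and by 0.55 ± 0.11 with Tm plus LPS against LPS (adjusted p = 0.00184). The first call was lost without control replicate 1 or 3 or Tm replicate 2 or 3 (adjusted p of 0.0556 to 0.0868), and the second held in all 21 alternative analyses. Canx, its membrane-bound partner, whose promoter also holds the ERSE letters, had 216, 178 and 185 FPKM in Tm plus LPS, 179.5, 191.5 and 216 in Tm, 162, 169 and 192 in LPS, and 183, 163 and 175 in control libraries. Canx did not pass in any contrast (log2 0.17 ± 0.10 for Tm against control, adjusted p = 0.218), except for Tm against control under quantile normalization (log2 0.42, adjusted p = 0.00572). The ratio of Calr to Canx had medians of 2.71 in Tm plus LPS, 2.43 in Tm, 2.18 in LPS and 2.02 in control cells. Its ranges were 2.60 to 3.02, 2.37 to 2.53, 1.84 to 2.28 and 1.91 to 2.47 in that order, and Tm overlapped control.

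Mogs, which encodes glucosidase I, the enzyme that removes the outermost glucose, was lower with either agent alone. Mogs had 21.6, 15.1 and 18.1 FPKM in the Tm plus LPS libraries, 13.5, 22.9 and 6.96 in Tm, 9.23, 9.22 and 13.2 in LPS, and 30.1, 26.0 and 21.7 in control libraries. It fell by 1.23 ± 0.29 with LPS against control (adjusted p = 0.00578), with no overlap, and this call held in all 21 alternative analyses. It fell by 0.93 ± 0.29 with Tm against control (adjusted p = 0.0192), where the spread of the Tm libraries was wide and 1 of them overlapped control. That fall was lost without control replicate 1 (log2 -0.82, adjusted p = 0.0697) or Tm replicate 3 (log2 -0.52, adjusted p = 0.112). With Tm plus LPS against LPS the log2 value was 0.74 ± 0.29 (adjusted p = 0.0627), which passed with only the libraries of that contrast (0.0155) and without Tm replicate 2 (0.0226) or 3 (0.0145). With Tm plus LPS against Tm it was 0.45 ± 0.29 (adjusted p = 0.337), and without Tm replicate 2 it was 0.83 and passed (adjusted p = 0.0469). The interaction was 1.67 ± 0.41 (adjusted p = 0.0304), and it was lost without control replicate 1 or 2, LPS replicate 1 or 2, or Tm plus LPS replicate 1 or 3 (adjusted p of 0.0637 to 0.0791).

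Ganab, the catalytic subunit of glucosidase II, had 34.1 to 42.7 FPKM in Tm plus LPS, 34.1 to 35.2 in Tm, 38.8 to 49.6 in LPS and 37.7 to 40.2 in control libraries. Uggt1, which puts a glucose back on misfolded glycoproteins so that the lectins bind them again, had 16.5 to 24.8 FPKM over the 12 libraries. Neither passed in any contrast, with log2 values for Tm against control of -0.16 ± 0.12 for Ganab and -0.01 ± 0.15 for Uggt1.

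Of 36 further genes of the pathway, 35 were tested: 7 rose and 2 fell with Tm against control, 7 rose and 2 fell with Tm plus LPS against LPS, and 0 rose and 2 fell with Tm plus LPS against Tm. Over all genes 17.9% were higher and 16.6% lower with Tm against control, and 13.8% and 15.1% with Tm plus LPS against LPS. With Tm plus LPS against Tm they were 8.69% and 7.0%. In total 34.5%, 28.9% and 15.7% of all genes passed, and the share of the 35 was below that each time. By direction, the share of the 35 that fell was below that of all genes each time. The share that rose was above that of all genes in both tunicamycin contrasts. With LPS against control 0 of the 35 passed by limma, where 18.4% of all genes did. At an unadjusted p under 0.05 there were 1 higher and 2 lower. The interaction passed for 0 of the 35, against 3.37% of all genes. In it 1 of the 35 was higher and 1 lower at an unadjusted p under 0.05. Gmppb, the enzyme that makes GDP-mannose, had 77.0, 50.9 and 66.2 FPKM in Tm plus LPS, 47.4, 45.3 and 45.4 in Tm, 19.9, 20.4 and 15.2 in LPS, and 22.8, 18.1 and 26.8 in control libraries. It rose by 1.01 ± 0.17 with Tm against control (adjusted p = 0.000188) and by 1.74 ± 0.17 with Tm plus LPS against LPS (adjusted p = 1.03e-06), with no overlap between libraries with and without Tm. Gmppa, its related subunit, rose by 0.51 ± 0.13 with Tm plus LPS against LPS (adjusted p = 0.00829). Gfpt2, the second form of the enzyme encoded by Gfpt1, had 1.34, 0.622 and 2.51 FPKM in Tm plus LPS, 0.933, 1.36 and 1.75 in Tm, 0.539, 0.425 and 1.76 in LPS, and was listed at 0.153, 0 and 0 in control libraries. It rose with Tm against control (log2 1.15 ± 0.31, adjusted p = 0.00848), at levels where a fold change depends on the pseudocount.

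Ngly1, the cytosolic enzyme that strips glycans from misfolded proteins, had 26.4, 29.9 and 30.4 FPKM in Tm plus LPS, 24.7, 24.3 and 17.8 in Tm, 12.3, 9.13 and 13.5 in LPS, and 9.59, 7.09 and 10.8 in control libraries. It rose by 1.20 ± 0.18 with Tm against control (adjusted p = 0.000101) and by 1.25 ± 0.18 with Tm plus LPS against LPS (adjusted p = 8.77e-05). Mgat2, a Golgi GlcNAc transferase, rose by 0.52 ± 0.11 and 0.61 ± 0.11 in the same contrasts (adjusted p = 0.00149 and 0.000585). Edem2, which acts on mannoses of glycoproteins bound for degradation, rose by 0.39 ± 0.13 (adjusted p = 0.0227) and 0.69 ± 0.13 (adjusted p = 0.000574), the first of which was lost without control replicate 2 or Tm replicate 3 (adjusted p up to 0.114). Mgat1, which acts before Mgat2, rose with Tm against control by 0.35 ± 0.13 (adjusted p = 0.0498). That rise was lost in 15 of 21 alternatives (adjusted p up to 0.152, without control replicate 2). Mgat1 fell with Tm plus LPS against Tm by 0.79 ± 0.13 (adjusted p = 0.000396). Dolpp1, a dolichyl pyrophosphate phosphatase, fell by 0.91 ± 0.17 in that last contrast (adjusted p = 0.00142). Lman2, a cargo lectin, rose by 0.27 ± 0.10 with Tm plus LPS against LPS (adjusted p = 0.0437, at most 0.129 without 1 library), a call lost in 12 of 21 alternatives.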

How the data were processed

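RNA sequencing libraries of mouse BMDMs, 3 in each of 4 groups, were analysed from the deposited table of FPKM, with 1 row per gene symbol and 1 column per library. The submitters' processing notes name Cufflinks 2.2.1, TopHat2 2.0.13 with Bowtie2 2.2.3, SAMtools 0.1.19 and the build mm10. The sources used here do not give the gene annotation, the strand setting or any scaling between libraries. Reads could not be recovered from low FPKM (7.07% to 19.0% of values below 0.3 lay within log2 0.02 of 1 ratio), so depth and counting error are unknown and precision is the spread between libraries. No 2 libraries held identical values.

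Genes that reached 1 FPKM in 3 or more libraries (10311 of 24346) were fitted as log2(FPKM + 1) with limma 3.58.1 (lmFit, contrasts.fit, eBayes with trend; R 4.3.3), 1 mean per group over all 12 libraries, with 5 contrasts and Benjamini-Hochberg adjustment over all genes. The method was tested on simulated data. Coordinates, overlaps and coding lengths come from GENCODE M21, which all 33 genes matched, and promoters from RefSeq. Tables and figures were made in Python 3.11.15 (pandas 2.3.3, matplotlib 3.10.9). The 33 genes were all named; of the further genes of the pathway, up to 4 a list with the largest change were named among those that passed. A result that meets this rule is not reported here. The members and lists were chosen with earlier results of these data known. Alternatives were no trend, quantile normalization, the number of the replicate as a block, no filter or one at 5 FPKM, a fit on the libraries of the contrast only, scaling by the median of ratios, a pseudocount of 0.1, each library left out in turn, and control replicate 2 and Tm plus LPS replicate 3 left out together. The same alternatives were run for the further genes, which was decided after the data were seen. Comparison of protein sequences was not used here.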

Additional observations from a re-analysis of the deposited data

Results flagged for a closer look

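For Mogs the interaction passed with all libraries, but not in every alternative. The log2 fold change was 0.45 ± 0.29 for Tm plus LPS against Tm (adjusted p = 0.337, and 0.83 with adjusted p = 0.0469 without Tm replicate 2) and -1.23 ± 0.29 for LPS against control (adjusted p = 0.00578). The test of the difference itself gave an interaction of 1.67 ± 0.41 on the log2 scale (limma, adjusted p = 0.0304), the only one of the 33 genes to pass, where 3.37% of all genes passed. This call was lost in 9 of 20 alternatives. Among these were 6 with a single library left out (adjusted p of 0.0637 to 0.0791), no filter (0.137) and no trend (0.0801). The Tm libraries, at 6.96 to 22.9 FPKM, were more spread than the Tm plus LPS libraries at 15.1 to 21.6, the LPS libraries at 9.22 to 13.2 or the control libraries at 21.7 to 30.1.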

How the results depend on the processing

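Of the 36 member results that passed, 17 held in every alternative: Gfpt1 in 3 contrasts, Gnpnat1, Uap1, Alg8 and Dad1 in both tunicamycin contrasts, Pgm3, Alg12 and Calr for Tm plus LPS against LPS, Alg3 and Alg9 for Tm against control, and Mogs for LPS against control. Over 3422 values of members under alternatives, 3258 kept their call, 138 lost it, 26 gained it and 0 reversed. The numbers of members that passed ranged, with 1 library left out, over 8 to 16 for Tm against control, 9 to 14 for Tm plus LPS against LPS, 1 to 3 for LPS against control, 1 to 4 for Tm plus LPS against Tm, and 0 to 2 for the interaction. Over all genes, in the same order, the ranges were 2796 to 3670, 2305 to 3039, 1457 to 1975, 1064 to 1652 and 229 to 353. Between 10229 and 10267 genes were tested in these. For Tm plus LPS against Tm the number, 4 as reported, was 1 with no filter, 2 with no trend, 2 with only the libraries of the contrast, and 1 with control replicate 2 and Tm plus LPS replicate 3 both left out. Over all genes 1377 of 15387, 1475 of 10311, 1359 of 9851 and 1381 of 10175 then passed, in that order. For the interaction the number of members was 0 with no filter, 0 with no trend and 0 with control replicate 2 and Tm plus LPS replicate 3 both left out. Over all genes it was 259 of 15387, 287 of 10311 and 212 of 10175. Of the calls of members, 13 were lost with no filter, 10 with those libraries left out, 8 with no trend, 5 with only the libraries of the contrast, 3 under quantile normalization and 1 with a pseudocount of 0.1. The cause was not tested. Over all genes, Tm plus LPS against Tm gave 1064 calls without Tm replicate 2 against 1618, and the interaction 229 without Tm replicate 3 and 212 with both libraries left out against 347. Quantile normalization put 44.92% of the calls of Tm plus LPS against Tm on the higher side, against 55.38%, and 47.97% of those of LPS against control, against 57.23%. With the replicate block 14 members passed for Tm against control, 13 for Tm plus LPS against LPS and 2 for LPS against control. There were 4 for Tm plus LPS against Tm and 1 for the interaction. Over all 10311 genes 3552, 2993, 1858, 1628 and 348 passed with the block, in that order. Alg6 for Tm against control (adjusted p = 0.0546) and Alg2 for Tm plus LPS against LPS (adjusted p = 0.0543) no longer passed. Libraries that share a number had deviations correlated by -0.04 to 0.09, and 2 to 4 of 6 libraries a contrast correlated best with their own number. With 3 libraries a group, these values cannot decide whether the numbers pair the libraries. Of 20 results that passed among the further genes, 15 held in every alternative.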
